A study of Homo sapiens with 12 samples.

Results

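The genes described here encode the subunits, activators, inhibitor and assembly factors of the proteasome. They were taken as the protein-coding genes of the count table whose symbol begins with PSMA, PSMB, PSMC, PSMD, PSME, PSMF or PSMG and a digit. Of 101 symbols that matched, 51 belonged to pseudogenes, antisense RNAs and other non-coding genes and were left out, so that 50 of the 60671 genes of the table remained. Their RNA was counted in BJ-5ta cells, human skin fibroblasts immortalized with telomerase (hTERT), and in a ΔLEO1 line made from them with CRISPR/Cas9. LEO1 is a subunit of the PAF1 complex, which travels with RNA polymerase II. The group WT_10 held wild-type cells in RPMI medium 1640 with 10% fetal bovine serum, and WT_01 held the same cells after 10 days in 0.1% serum, a treatment that brings fibroblasts to quiescence. Leo1_10 and Leo1_01 held ΔLEO1 cells under the same 2 conditions. All cells thus carried hTERT, and all ΔLEO1 cells came from 1 clone, so that a difference between genotypes cannot be told apart from a difference between clones. Each group had 3 libraries, numbered 1 to 3 for WT_10, 4 to 6 for Leo1_10, 7 to 9 for WT_01 and 10 to 12 for Leo1_01. The labels do not say whether the libraries of a group came from separate cultures, and p-values then measure only the spread between these libraries, which may be technical.

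The proteasome is the large protease that degrades proteins tagged with ubiquitin. Its barrel-shaped core is built from alpha rings, which gate the entrance, and beta rings, which carry the catalytic sites of PSMB5, PSMB6 and PSMB7. The regulatory cap, made of a ring of ATPases (PSMC genes) and of non-ATPase subunits (PSMD genes), recognizes and unfolds substrates. In cells exposed to interferon, PSMB8, PSMB9 and PSMB10 replace the constitutive catalytic subunits to form the immunoproteasome, and PSME1 with PSME2 forms the PA28 activator, which can dock in place of the cap. By role the 50 genes were 8 alpha and 8 beta core genes, 5 immune genes, 6 cap ATPases, 11 cap non-ATPases, 7 assembly factors (PSMG1 to PSMG4, PSMD5, PSMD9 and PSMD10), and 3 other activators or inhibitors. The last 3 were PSME3, which encodes the nuclear activator PA28gamma, PSME4, which encodes the activator PA200, and PSMF1, which encodes the inhibitor PI31. The symbol rule also took in PSMC3IP, a meiotic recombination factor, and PSME3IP1, a protein that binds PA28gamma, which are not proteasome subunits.

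The libraries held 26240632 to 45315560 gene counts, and ERCC transcripts, synthetic RNAs added as a reference, made up 0.625% to 3.24% of all counts, a share whose 95% Wilson interval was at most 0.0120 percentage points wide in any library and covers counting error only. LEO1 itself had 682 to 1001 counts in the wild-type libraries and 23 to 55 in the ΔLEO1 libraries. Fibroblast markers were abundant, with COL1A1 at 13849 to 33194 CPM (counts per 1000000 gene counts), while CD3E and CDH5 had at most 1 count and EPCAM at most 6. PTPRC, a marker of blood cells, had 8 to 269 counts, and KRT18 reached 1113 CPM. The highest-numbered library of each group (3, 6, 9 and 12) stood apart from the other libraries of its group. The standard deviation of the log2 CPM difference between 2 libraries of a group, taken over the tested members, was 0.0776 to 0.110 for the lower-numbered pairs and 0.112 to 0.245 for pairs with the highest-numbered library. Counts of calls are therefore also given without those 4 libraries, with the share of all genes called in the same fit.

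The stretches before the transcription start of 3 genes are shown because each stands for a pattern described below. They are PSMA5, whose RNA fell most in low serum, PSMA4, one of the genes that differed most between genotypes, and PSME1, an immune gene. The sequences are from RefSeq on GRCh38.p14, are written 5′ to 3′ on the strand of the gene, and cover chr1:109426449-109426698 on the minus strand for PSMA5, chr15:78540155-78540404 on the plus strand for PSMA4 and chr14:24135944-24136157 on the plus strand for PSME1. Capitals mark matches, on either strand, to CCAAT, to the GC box GGGCGG, to the core of the interferon response element (GAAA repeated after any 2 bases) and to the antioxidant response core TGACNNNGC, and 2 of these can overlap.
PSMA5: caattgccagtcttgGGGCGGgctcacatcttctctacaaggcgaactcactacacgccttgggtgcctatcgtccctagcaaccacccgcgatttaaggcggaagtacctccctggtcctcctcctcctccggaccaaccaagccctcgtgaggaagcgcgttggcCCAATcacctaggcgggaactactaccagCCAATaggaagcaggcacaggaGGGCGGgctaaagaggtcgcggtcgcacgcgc
PSMA4: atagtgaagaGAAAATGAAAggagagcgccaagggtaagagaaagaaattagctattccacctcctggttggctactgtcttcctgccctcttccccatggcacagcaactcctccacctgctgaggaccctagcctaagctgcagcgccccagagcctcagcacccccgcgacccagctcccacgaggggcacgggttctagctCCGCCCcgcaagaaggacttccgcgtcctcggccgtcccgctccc
PSME1: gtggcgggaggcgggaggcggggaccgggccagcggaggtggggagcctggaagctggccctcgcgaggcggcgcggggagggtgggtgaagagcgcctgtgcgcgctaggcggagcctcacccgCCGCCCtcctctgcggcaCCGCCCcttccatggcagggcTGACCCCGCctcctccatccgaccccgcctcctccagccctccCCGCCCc
The PSMA5 stretch held 2 CCAAT and 2 GC boxes, the PSMA4 stretch an interferon core and a GC box, and the PSME1 stretch an antioxidant core and 3 GC boxes. In windows of 250 bases before to 50 bases after each start, 44 of the 50 genes were found, with 55 windows. The interferon core stood in 12.7% of these windows against 3.57% of all 35116 windows of the same length, and in 4 of the 5 immune genes, with PSMB9 as the exception (the match of PSME1 lies outside the stretch shown). TGACNNNGC stood in 27.3% against 13.3%, GGGCGG in 70.9% against 45.0%, and CCAAT in 43.6% against 34.6%. These matches describe letters and not binding.

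Levels are given first, since the changes below start from them. In counts per kilobase of the principal transcript and 1000000 gene counts (RPKM), the 46 proteasome genes that passed the filter on low counts had a median of 35.1 in WT_10, 30.5 in WT_01, 37.4 in Leo1_10 and 35.2 in Leo1_01. The beta ring was the most abundant class in WT_10, with a median of 71.9 RPKM, followed by the immune genes at 37.8, the cap non-ATPases at 36.2, the cap ATPases at 30.0, the other activators and the inhibitor at 21.9, the alpha ring at 16.4 and the assembly factors at 9.46. The beta ring genes ran from 33.2 RPKM for PSMB2 to 110.3 for PSMB4. The alpha ring genes ran from 3.05 RPKM for PSMA2 to 93.8 for PSMA7, although both encode subunits present in equal number in the core.

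These levels, and the order of the classes, depend on the transcript length used. Over all annotated exons the median immune gene in WT_10 was PSME2 at 14.8. It lay below the median cap non-ATPase, PSMD3 at 18.4, and the median of the other activators and the inhibitor, PSMF1 at 17.7. PSME3 had the highest level in WT_10, 112.5 RPKM, over a principal transcript of 998 bases, but ranked 17 of 46 over all its annotated exons, 5152 bases, at 21.8. PSMA7 then ranked 1, and PSMA2 ranked 46 over the principal transcript and 45 over all exons. Other annotated genes on the same strand covered 52.5% of the principal transcript of PSMA2, 53.2% of that of PSMA1, 81.0% of that of PSMA6, 45.3% of that of PSMB10 and 43.8% of that of PSMD9, so that counts of these genes are uncertain. Overlap with genes on the other strand was largest for PSMC1, with 82.1% covered by NRDE2 (whether strand was used in counting is not given in the sources used here). It was 54.4% for PSMC3IP, under MLX, and 50.4% for PSMD7, under AC009120.2. Counts of these 3 genes are uncertain too if strand was not used. PSMA8, the testis form of an alpha subunit, had 0 counts in every library, which allows up to 3 counts, and PSMB11, the thymus form of a catalytic subunit, had 0 to 3.

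**Figure D1:**
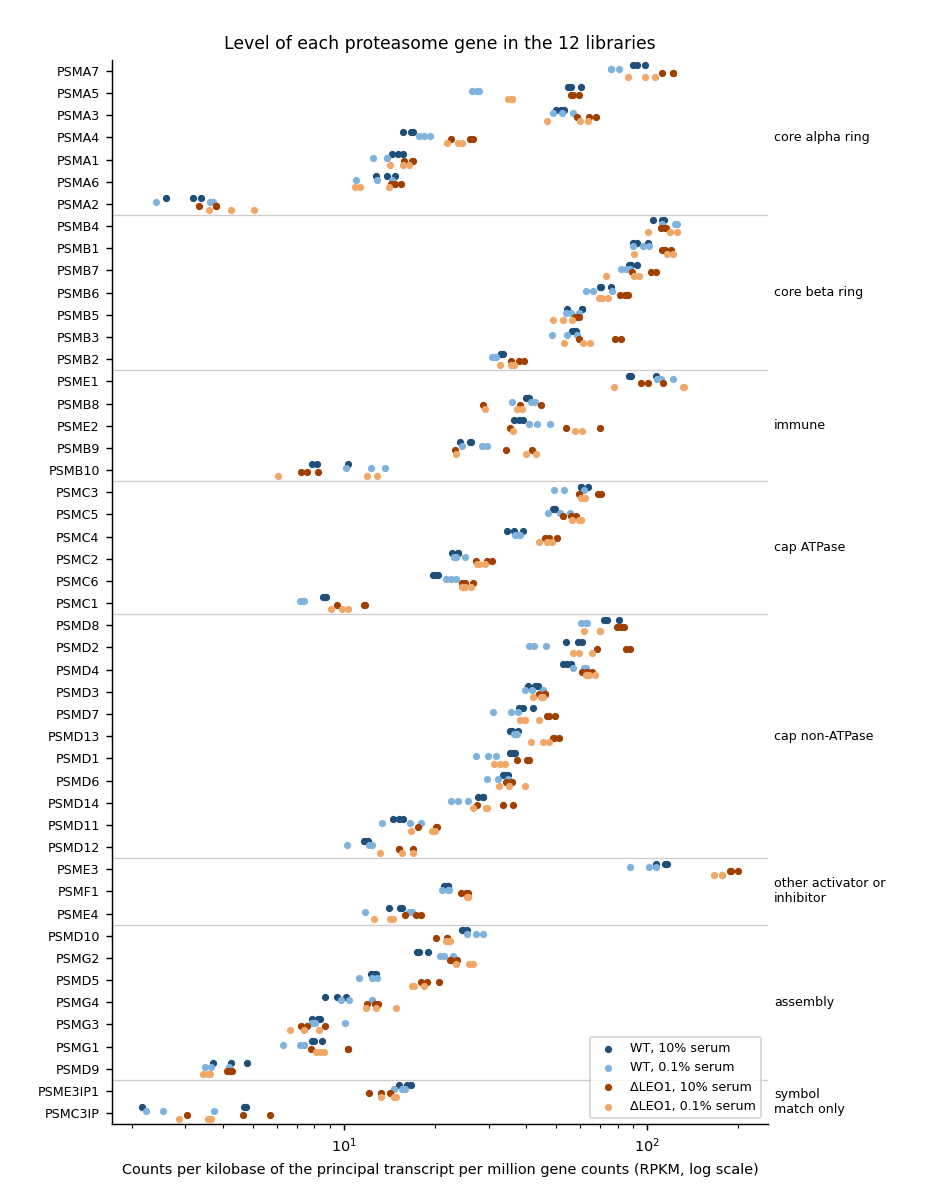
Levels in RPKM, as defined above (log scale), of the 48 tested genes, grouped by role, with 1 point for each of the 12 libraries. Most beta ring genes lie toward the upper end, with PSMB2 the lowest of them by group mean. The alpha ring genes spread from PSMA2 to PSMA7, and the pale points of PSMA5 lie apart from its dark ones.

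The first question was how the proteasome genes responded to low serum. The libraries were set to the ERCC counts, so that a fold change follows the amount of each RNA per amount of ERCC RNA (ERCC scale), and the log2 difference between groups was tested in edgeR over all 13236 genes that passed the filter. On this scale all 48 tested members were at lower values in WT_01 than in WT_10. Their median log2 fold change was -1.07, against -0.97 over all tested genes, 12569 of which were negative. An adjusted p under 0.05 was reached by 13 of the 48 members, or 27.1%, beside 27.0% of all tested genes called lower. None was called higher, against 0.831% of all genes. An unadjusted p under 0.05 was reached by 35 members, beside 6653 of the 13236 genes. The shares of members and of all genes called lower lay farther apart in some other fits. The likelihood ratio test of edgeR called 23 members and 4776 of all genes lower, and DESeq2 called 33 and 5334. In bulk RNA, fewer cells, less RNA per cell and a different amount of RNA or ERCC put into a library cannot be told apart.

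The 13 members that fell in wild-type cells came from most parts of the particle. They were PSMA1, PSMA5 and PSMA7 of the alpha ring, PSMC1 and PSMC3 of the ATPase ring, PSMD1, PSMD2, PSMD7, PSMD8 and PSMD14 of the cap, the activator PSME3, the assembly factor PSMG1, and PSMC3IP. The largest fall was that of PSMA5 at -2.11 ± 0.49 on the log2 scale (SE, adjusted p = 0.000416), a 4.33-fold difference. PSMC3IP followed with -1.65 (adjusted p = 0.0162), at a low level of 3.06 to 6.74 CPM in WT_10, and then PSMD2 with -1.50 (adjusted p = 0.014). No gene of the beta ring and no immune gene was called by edgeR, with medians of -1.12 and -0.81 and an unadjusted p under 0.05 for 6 of 7 and 1 of 5. The smallest differences were those of PSMB10 (-0.53, adjusted p = 0.348), PSME1 (-0.75, adjusted p = 0.17) and PSMG2 (-0.78, adjusted p = 0.16).

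In ΔLEO1 cells 39 of the 48 members fell in low serum, or 81.3%, beside 36.4% of all tested genes. The median of the members was -1.28 against -1.05 over all genes, all 48 values were negative, and no member was called higher, beside 0.793% of all genes. The 39 included all 13 members called in wild-type cells, which made up 33.3% of them. All 7 tested genes of the beta ring fell, with -1.31 for PSMB5 (adjusted p = 0.032), -1.37 for PSMB6 (adjusted p = 0.0278) and -1.42 for PSMB7 (adjusted p = 0.0235). So did 10 of 11 cap non-ATPases, 6 of 7 tested alpha ring genes, 5 of 6 ATPases, 4 of 5 immune genes, 4 of 7 assembly factors, 2 of 3 other activators, and PSMC3IP. The largest falls were again those of PSMA5 (-1.83 ± 0.48, adjusted p = 0.00354), PSMC3IP (-1.57, adjusted p = 0.0237) and PSMD2 (-1.51, adjusted p = 0.0155), and the smallest differences those of PSMB10 (-0.88, adjusted p = 0.122), PSMA2 (-0.97, adjusted p = 0.103) and PSME3IP1 (-1.02, adjusted p = 0.0704).

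The larger number of calls in ΔLEO1 cells does not show by itself that the genotypes differed. The interaction tests whether the change in low serum differed between genotypes. It was called for 0 of 48 members by edgeR and by DESeq2, beside 0.174% of all genes in edgeR. At an unadjusted p under 0.05 there were 0 members, beside 280 of all 13236 genes. The counts themselves depended on single libraries. The number of gene counts per ERCC count ranged from 67.9 to 126 in WT_10, from 106 to 159 in Leo1_10, from 37.1 to 59.0 in WT_01 and from 29.8 to 90.5 in Leo1_01, and its part in these counts was not tested. Without WT_10 library 1 or 2, or without WT_01 library 7 or 9, only PSMA5 was called in wild-type cells, and without Leo1_01 library 12 the number was 43. Over all genes, 879 of 13183 were called lower in wild-type cells without WT_10 library 1 and 1137 of 13191 without library 2. With all libraries the number was 3578 of 13236. In ΔLEO1 cells no member was called without Leo1_01 library 10, and 1 without Leo1_10 library 4 or 5 or without Leo1_01 library 11. The numbers over all genes for the other left-out libraries named here are not given. These swings thus cannot be read as a trait of the members. Without the highest-numbered library of each group, 43 members were called in wild-type cells and 48 in ΔLEO1 cells, beside 63.4% and 92.0% of all 12911 genes tested in that fit. PSMA5 in wild-type cells was the 1 call that held with each of the 12 libraries left out in turn.

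PSMA5, which encodes a subunit of the alpha ring, was followed in each library. It had 209.8, 205 and 226 CPM in WT_10 and 98.7, 104 and 102 CPM in WT_01, and 222, 209.7 and 213 CPM in Leo1_10 against 134, 129.6 and 134 CPM in Leo1_01. The low-serum libraries of both genotypes lay below every library in 10% serum, and those of wild-type cells lay below those of ΔLEO1 cells. Scaled to the effective ERCC library size in place of the gene counts, the CPM values were 26451, 21543 and 15667 in WT_10 and 4622, 6260.0 and 3820.2 in WT_01. In ΔLEO1 cells they were 35179, 24435 and 22413 in Leo1_10 and 7034, 3883 and 12122 in Leo1_01, again with no overlap between serum levels, but with a wide spread in low serum.

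**Figure D2:**
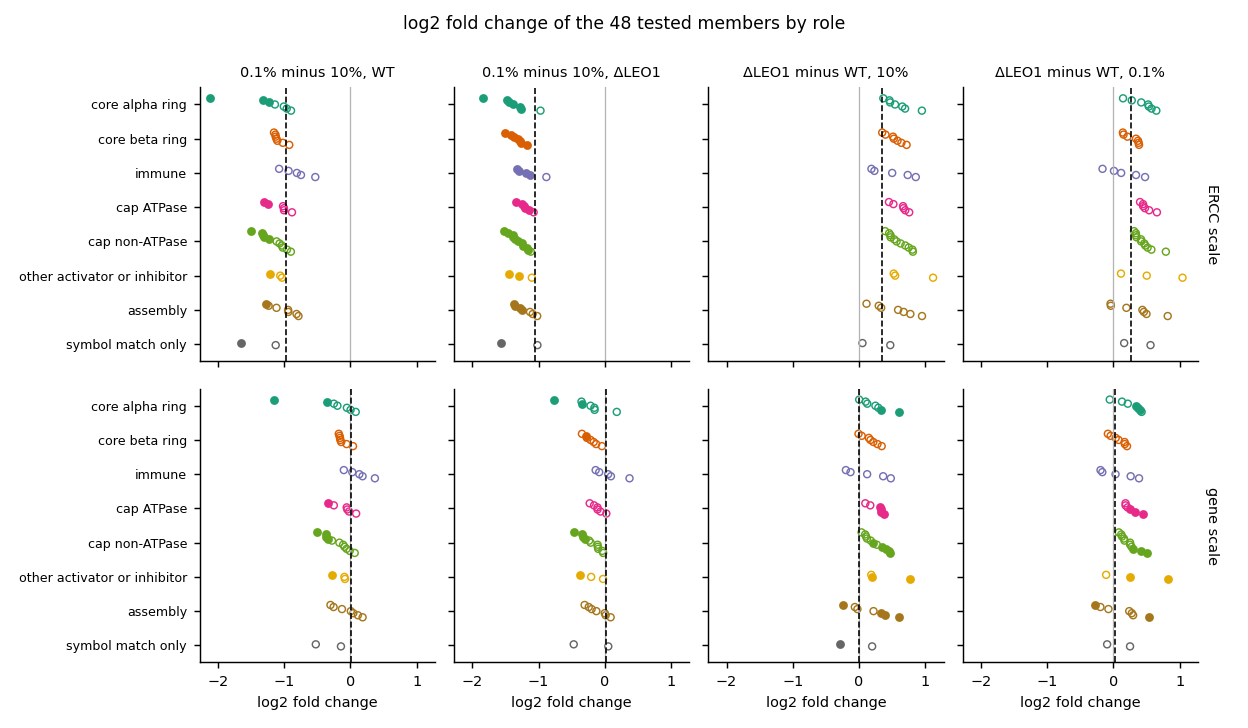
log2 fold change of the 48 tested members, by role, in the 4 comparisons of 2 groups (columns), on the ERCC scale (top) and relative to the other genes (bottom). Each point is 1 gene, filled where the adjusted p was under 0.05, and the dashed line is the median of all 13236 tested genes. On the ERCC scale all points of the serum comparisons lie below 0, while on the gene scale they lie on both sides of the dashed line, with PSMA5 farthest to the left.

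Because most genes fell on the ERCC scale, the members were also compared relative to the other genes, with libraries scaled by the trimmed mean of M-values over the tested genes (gene scale). The median of all genes was then 0.00 in wild-type and 0.01 in ΔLEO1 cells, a shift of about 1 on the log2 scale from the ERCC values. On this scale 8 members fell in wild-type cells (16.7% of 48, beside 16.1% of all tested genes) and 8 in ΔLEO1 cells (beside 12.1%). None was called higher by edgeR with either scaling on the genes, and 0 of the positive values had an unadjusted p under 0.05, while 15.5% of all genes were called higher in each genotype. The medians of the members were -0.11 and -0.16. Most members thus lay close to the median gene, and a few lay well below it.

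The 8 in wild-type cells were led by PSMA5 (-1.16 ± 0.08, adjusted p = 3.12e-06), which was 2.23-fold lower. They also held the scaffold subunits of the cap PSMD2 (-0.51 ± 0.10, adjusted p = 0.00316) and PSMD1 (-0.37 ± 0.08, adjusted p = 0.0042), PSMD8 (-0.37 ± 0.09, adjusted p = 0.0095), PSMA7 (-0.36 ± 0.10, adjusted p = 0.0149), PSMC1 (-0.34, adjusted p = 0.0236), the deubiquitinase PSMD14 (-0.33, adjusted p = 0.0308) and PSME3 (-0.27, adjusted p = 0.0382). In ΔLEO1 cells PSMA5 (-0.76 ± 0.08, adjusted p = 5.6e-05), PSMD2 (-0.47), PSMD1 (-0.33), PSMD8 (-0.34) and PSMA7 (-0.35) fell too, 62.5% of each set of 8, and PSMB6 (-0.29), PSMD7 (-0.29) and PSME4 (-0.38) were the others. PSMD2 had 204, 210.0 and 186 CPM in WT_10 and 159.6, 146 and 141 CPM in WT_01, and 293, 302 and 236 CPM in Leo1_10 against 205, 196 and 227 CPM in Leo1_01. The groups did not overlap in either genotype, although Leo1_10 library 6 and Leo1_01 library 12 lay close. The calls of PSMA5, PSMD1, PSMD2 and PSMD8 in wild-type cells, and of PSMA5, PSMD1 and PSMD2 in ΔLEO1 cells, held with each library left out. Without the highest-numbered libraries 17 members fell and 2 rose in wild-type cells, beside 30.0% and 27.1% of all genes, and 16 fell and 4 rose in ΔLEO1 cells, beside 27.7% and 28.3%.

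The smaller falls were read in each library too. PSMD8, a subunit of the lid of the cap, had 112, 115 and 126 CPM in WT_10 and 94.3, 98.3 and 97.8 CPM in WT_01, and 131, 127 and 123 CPM in Leo1_10 against 109, 108 and 96.3 CPM in Leo1_01. PSMD1 had 119.9, 118 and 122 CPM in WT_10 and 105, 99.0 and 90.8 CPM in WT_01, and 134, 136 and 124 CPM in Leo1_10 against 109, 104 and 113 CPM in Leo1_01. For both genes each library in low serum lay below each library of the same genotype in 10% serum. PSMA7 had 89.5 to 98.3 CPM in WT_10 and 75.6 to 80.6 in WT_01, and 112 to 121 CPM in Leo1_10 and 86.3 to 106 in Leo1_01. Its groups did not overlap either, but its call did not hold with each library left out in either genotype.

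The fall of PSMA5 relative to the other genes was smaller in ΔLEO1 cells by 0.40 on the log2 scale, the only member with an unadjusted p under 0.05 for the interaction. Its adjusted p of 0.0927 over all tested genes missed the threshold, and no member was called for the interaction on the gene scale by edgeR, beside 0.453% of all genes called in the negative and 1.55% in the positive direction. Without the highest-numbered libraries it was called for PSMA5 (0.39, adjusted p = 0.00596) and, in the other direction, for PSME4 (-0.45, adjusted p = 0.00221), beside 15.7% of all genes in the positive and 8.66% in the negative direction. Of the genes within 2 Mb of PSMA5 on chromosome 1 (chr1:109399031-109426427, minus strand, GRCh38), 41 were tested, with a median of -0.07 in wild-type and 0.06 in ΔLEO1 cells in low serum.

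The second question was how the genes differed between ΔLEO1 and wild-type cells at the same serum level. On the ERCC scale all 48 members were at higher values in Leo1_10 than in WT_10 (median 0.54, against 0.35 over all genes), and 45 were in Leo1_01 against WT_01 (median 0.42, against 0.27). None passed the test in either direction in edgeR's quasi-likelihood or likelihood ratio test or in DESeq2. At an unadjusted p under 0.05 there were 3 members in 10% and 1 in 0.1% serum, beside 2062 and 1712 of all 13236 genes. Of all tested genes, 3.81% were called higher and 4.20% lower in 10% serum, and 3.49% higher and 3.41% lower in 0.1% serum. The highest values were those of PSME3 (1.12 ± 0.47, adjusted p = 0.164), PSMD5 (0.95, adjusted p = 0.315) and PSMA4 (0.95, adjusted p = 0.31) in 10% serum. In 0.1% serum they were those of PSME3 (1.04, adjusted p = 0.258), PSMD5 (0.82, adjusted p = 0.534) and PSMD2 (0.79, adjusted p = 0.541). The lowest were PSME3IP1 (0.05), PSMD10 (0.11) and PSMB10 (0.19) in 10% serum, and PSMB10 (-0.16), PSMG3 (-0.04) and PSMD10 (-0.04) in 0.1% serum. Without the highest-numbered libraries the median in 0.1% serum turned to -0.14, with 39 of 48 members negative.

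Relative to the other genes the difference was larger than the spread between libraries for many members. On the gene scale 16 members were higher and 2 lower in Leo1_10 than in WT_10, beside 17.9% and 21.4% of all tested genes, so that 33.3% of the members were higher. In 0.1% serum 12 members were higher, or 25.0%, and 1 was lower, beside 15.1% and 17.3% of all genes. The medians of the members were 0.20 and 0.21, against 0.00 and 0.02 over all genes. The 2 genotype comparisons share no library, but both set the same clone against wild-type cells and come from 1 fit. In both, 11 members were called higher, 68.8% of the 16 and 91.7% of the 12. How many of all genes were called higher in both was not counted, so that this overlap cannot be read as a trait of the members. The summed counts of the 46 tested proteasome genes were 0.302% to 0.312% of the gene counts in WT_10 and 0.342% to 0.384% in Leo1_10, and 0.281% to 0.295% in WT_01 and 0.308% to 0.340% in Leo1_01, with no overlap between genotypes at either serum level.

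The members called higher in both were spread over the alpha ring, the cap and its assembly. Of the cap ATPases, PSMC1, PSMC2 and PSMC4 were higher in both and PSMC6 in 10% serum (0.33, adjusted p = 0.00365). Of the non-ATPases, PSMD2, PSMD12 and PSMD13 were higher in both, and PSMD4 (0.21, adjusted p = 0.0485), which encodes a ubiquitin receptor, and PSMD11 (0.35, adjusted p = 0.0376) in 10% serum. Of the alpha ring, PSMA4 and PSMA7 were higher in both and PSMA5 in 0.1% serum (0.40, adjusted p = 0.00192, against 0.00 in 10% serum). Of the assembly factors PSMD5 was higher in both, and PSMG2 (0.33, adjusted p = 0.0107) and PSMG4 (0.40, adjusted p = 0.0321), chaperones of core assembly, in 10% serum. The inhibitor PSMF1 (0.19 and 0.26, adjusted p = 0.0406 and 0.0124) and PSME3 completed the 11. No beta ring or immune gene was called by edgeR, with medians of 0.17 and 0.12 in 10% and 0.08 and 0.03 in 0.1% serum. An unadjusted p under 0.05 was reached by 3 beta ring genes in 10% serum and 0 otherwise. Of all 13236 genes, 6413 in 10% and 5594 in 0.1% serum reached it. The absence of calls did not hold without the highest-numbered libraries, where 5 of 7 beta ring genes and 3 of 5 immune genes were called higher at each serum level. In that fit 30.3% of all genes were called higher in 10% and 30.4% in 0.1% serum. With 1 library left out, PSMB3 was called in 10% serum without library 6 (0.46, adjusted p = 0.0114), 9 or 12 and PSMB6 without library 9, and PSMB1 and PSMB2 were called at both serum levels without Leo1_01 library 12.

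PSME3 showed the largest difference at both serum levels. It had 107, 116 and 114 CPM in WT_10 and 189, 199 and 188 CPM in Leo1_10, and 107, 101 and 88.0 CPM in WT_01 against 177, 176 and 166 CPM in Leo1_01. All 6 ΔLEO1 libraries thus lay well above all 6 wild-type libraries. The log2 differences were 0.76 ± 0.09 and 0.83 ± 0.09 (adjusted p = 5e-05 and 4.18e-05), or 1.70-fold and 1.78-fold, and both calls held with each library left out. PSME3 lies at chr17:42824385-42843758 on the plus strand, and the 79 tested genes within 2 Mb of it had medians of 0.16 and 0.10 in the same comparisons.

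PSMD5 encodes a chaperone of the ATPase ring, and its values followed the same order. It had 42.4, 44.0 and 43.0 CPM in WT_10 and 64.8, 70.7 and 62.0 CPM in Leo1_10, and 42.6, 38.6 and 44.4 CPM in WT_01 against 58.8, 57.6 and 63.2 CPM in Leo1_01. The groups of the 2 genotypes did not overlap, with log2 differences of 0.60 ± 0.08 (adjusted p = 0.000117) and 0.53 ± 0.08 (adjusted p = 0.000409). The 22 tested genes within 2 Mb of PSMD5 (chr9:120815496-120842984, minus strand) had medians of -0.16 and -0.07.

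PSMA4, an alpha ring gene at chr15:78540405-78552419 on the plus strand, was higher in ΔLEO1 cells at both serum levels as well. It had 74.7, 73.5 and 69.3 CPM in WT_10 and 115, 117 and 99.3 CPM in Leo1_10, and 78.1, 84.9 and 80.9 CPM in WT_01 against 105, 108 and 96.9 CPM in Leo1_01. Its difference was 0.60 ± 0.09 and 0.37 ± 0.09 (adjusted p = 0.000258 and 0.00807), with no overlap. Library 6 and library 12 were the lowest of their groups. PSMD2 differed by 0.46 ± 0.10 (adjusted p = 0.00356) and 0.51 ± 0.10 (adjusted p = 0.00267), and lies at chr3:184298709-184309054 on the plus strand. The other members called higher in both ran from 0.19 for PSMF1 to 0.45 for PSMD13 in 10% serum and from 0.26 for PSMC2 and PSMF1 to 0.44 for PSMC1 in 0.1% serum.

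The genes of 3 cap ATPases were higher as well. PSMC4 had 54.9, 58.1 and 61.9 CPM in WT_10 and 80.5, 75.8 and 73.1 CPM in Leo1_10, and 58.5, 60.3 and 60.7 CPM in WT_01 against 74.3, 77.4 and 69.8 CPM in Leo1_01. These were differences of 0.38 and 0.32 (adjusted p = 0.00356 and 0.0119), with no overlap. PSMC2 had 69.4 to 72.7 CPM in WT_10 and 83.5 to 93.9 in Leo1_10, and 70.6 to 76.7 CPM in WT_01 and 83.7 to 89.5 in Leo1_01 (0.31 and 0.26, adjusted p = 0.00628 and 0.0208). PSMC1, whose reads may be shared with NRDE2 on the other strand, had 38.0 to 38.9 CPM in WT_10 and 42.1 to 52.4 in Leo1_10, and 31.9 to 32.8 CPM in WT_01 and 40.4 to 45.7 in Leo1_01 (0.33 and 0.44, adjusted p = 0.0188 and 0.00542). In all 3 genes every ΔLEO1 library lay above every wild-type library of the same serum level. These genes, like the other called genes shown by library, were picked by their calls. The lack of overlap therefore adds no support to the calls, and its share over all genes was not counted.

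PSMD13 and PSMD12, subunits of the lid, and the inhibitor gene PSMF1 showed the same order. PSMD13 had 71.3, 70.1 and 74.8 CPM in WT_10 and 97.6, 102 and 98.1 CPM in Leo1_10, and 72.4, 73.7 and 74.3 CPM in WT_01 against 94.4, 90.0 and 82.7 CPM in Leo1_01 (0.45 and 0.30, adjusted p = 0.00122 and 0.0176). PSMD12 had 51.3 to 53.1 CPM in WT_10 and 67.0 to 74.3 in Leo1_10, and 45.3 to 54.5 CPM in WT_01 and 58.1 to 74.3 in Leo1_01. PSMF1 had 91.8 to 94.9 CPM in WT_10 and 105 to 109.9 in Leo1_10, and 90.5 to 95.1 CPM in WT_01 and 109.7 to 110.4 in Leo1_01. None of these groups overlapped between genotypes, which again adds no support to the calls.

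**Figure D3:**
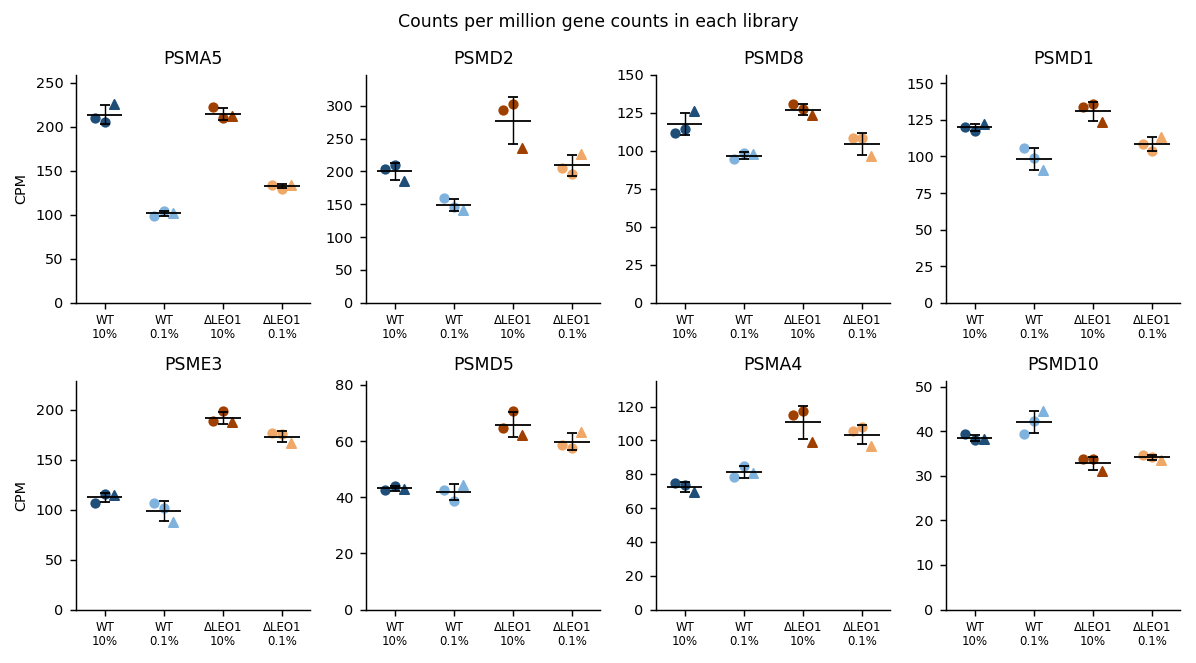
CPM of 8 genes in each library, with the mean (line) and SD (bars) of each group of 3, and triangles for the highest-numbered library. PSMA5 is lower in 0.1% serum in both genotypes, PSME3, PSMD5 and PSMA4 are higher in all ΔLEO1 than in all wild-type libraries, and PSMD10 is lower.

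PSMD10 went the other way. This gene encodes gankyrin, an assembly chaperone of the ATPase ring, and lies on chromosome X. It had 39.3, 38.0 and 38.4 CPM in WT_10 and 33.7, 33.7 and 31.1 CPM in Leo1_10, and 39.5, 42.3 and 44.5 CPM in WT_01 against 34.7, 34.3 and 33.6 CPM in Leo1_01. All ΔLEO1 libraries lay below the wild-type libraries of the same serum level, with log2 differences of -0.24 ± 0.08 and -0.28 ± 0.08 (adjusted p = 0.031 and 0.0173). PSME3IP1 was lower in 10% serum (-0.29, adjusted p = 0.0125) and had -0.09 in 0.1% serum (adjusted p = 0.395). On the ERCC scale the 2 genes had values close to 0 in 10% serum, as given above, so that their direction holds only relative to the other genes.

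Most of these differences were small, and the calls varied with the libraries used. Of the 16 members called higher in 10% serum 9 kept their call with each of the 12 libraries left out, and 8 of the 12 in 0.1% serum. PSME3, PSMD5, PSMA4, PSMD2 and PSMC4 did so in both. How many calls of all genes held in this way was not counted. Without the highest-numbered library of each group 32 members were higher in 10% serum and 36 in 0.1% serum, among them all 16 and all 12, beside 30.3% and 30.4% of all genes. In that fit 31.9% and 29.0% of all genes were called lower.

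**Figure D4:**
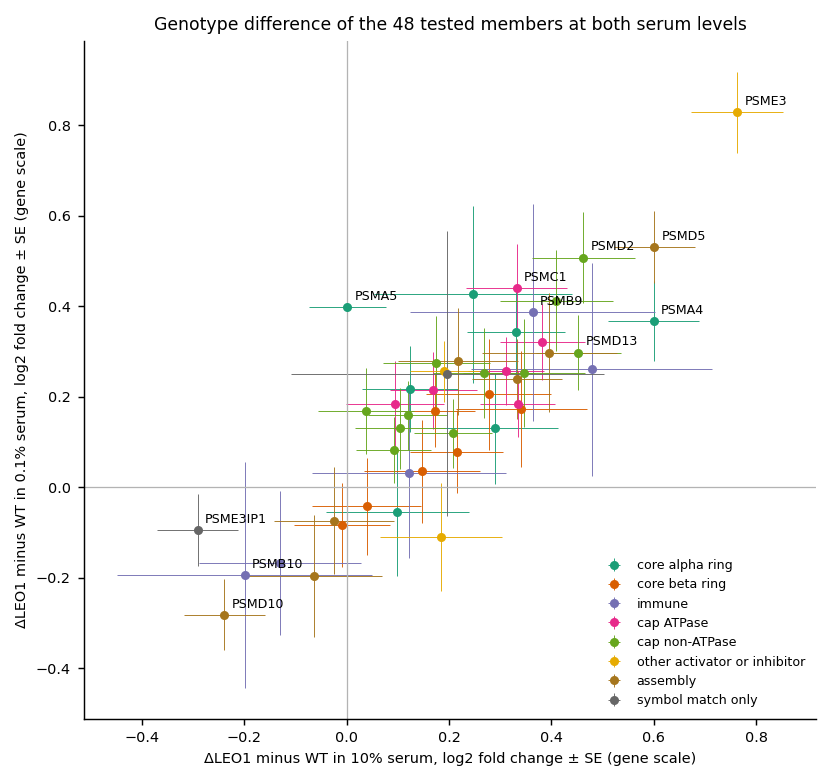
log2 difference between ΔLEO1 and wild-type cells on the gene scale in 10% serum (horizontal) and 0.1% serum (vertical) for the 48 tested members, with bars of 1 SE and colours for the role. Most points lie above and to the right of 0, with PSME3 farthest out, PSMD10 at the lower left, and PSMA5 at 0.00 in 10% and 0.40 in 0.1% serum.

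The immune genes were described separately. PSMB8 had 45.5, 45.9 and 44.9 CPM in WT_10 and 40.3, 46.5 and 48.1 CPM in WT_01, and 42.9, 50.4 and 32.3 CPM in Leo1_10 against 43.4, 42.0 and 32.9 CPM in Leo1_01, with overlap in each of the 4 comparisons. PSMB9 had 18.9 to 20.5 CPM in WT_10, 19.2 to 23.2 in WT_01, 18.1 to 32.7 in Leo1_10 and 18.3 to 33.5 in Leo1_01. PSMB10, the least abundant, had 9.57 to 12.5 CPM in WT_10, 12.4 to 16.6 in WT_01, 8.82 to 10.0 in Leo1_10 and 7.39 to 15.6 in Leo1_01. PSME1 had 87.9 to 108 CPM in WT_10, 108 to 123 in WT_01, 96.3 to 114 in Leo1_10 and 78.0 to 134 in Leo1_01. PSME2 had 51.2 to 54.9 CPM in WT_10, 57.1 to 67.2 in WT_01, 49.5 to 98.2 in Leo1_10 and 50.6 to 85.9 in Leo1_01. Library 6 and library 12 were the lowest of their groups for all 5 genes. They were also the lowest for the summed share of the 46 tested proteasome genes. That share was 0.342% in library 6, against 0.373% and 0.384%, and 0.308% in library 12, against 0.339% and 0.340%. The range was wider in Leo1_01 than in WT_01 for all 5 immune genes, and in Leo1_10 than in WT_10 for PSMB8, PSMB9 and PSME2.

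On the ERCC scale PSMB8 (-1.30, adjusted p = 0.034), PSMB9 (-1.19, adjusted p = 0.0464), PSME1 (-1.13, adjusted p = 0.0495) and PSME2 (-1.32, adjusted p = 0.0312) fell in low serum in ΔLEO1 cells, and in wild-type cells their values were -1.08, -0.93, -0.75 and -0.81 with adjusted p from 0.0692 to 0.17. No immune gene was called on the gene scale in any comparison by edgeR, and 0 had an unadjusted p under 0.05. Calls appeared when libraries were left out. Without Leo1_10 library 6 PSME2 was higher in Leo1_10 than in WT_10 (0.70, adjusted p = 0.0248). Without Leo1_01 library 12 PSMB10 (0.66, adjusted p = 0.00761) and PSME1 (0.33, adjusted p = 0.0368) rose in low serum in ΔLEO1 cells, and PSMB9 was higher in Leo1_01 than in WT_01 (0.63, adjusted p = 0.0236). Without all 4 highest-numbered libraries PSMB10 and PSME1 rose in low serum in both genotypes, beside 27.1% of all genes in wild-type and 28.3% in ΔLEO1 cells. There PSMB9, PSME1 and PSME2 were higher in ΔLEO1 cells at both serum levels, beside 30.3% and 30.4% of all genes. PSMB8 was called in none of these fits. The values of PSMB10 in low serum were 0.37 in both genotypes, those of PSME1 0.18 and 0.09, those of PSME2 0.13 and -0.08, those of PSMB9 0.03 and 0.05, and those of PSMB8 -0.10 and -0.14. Between genotypes PSME2 had 0.48 and 0.26 and PSMB9 0.36 and 0.39, while PSMB10 had -0.20 and -0.19 and PSMB8 -0.13 and -0.17. The constitutive genes PSMB5 (70.3, 78.9 and 79.1 CPM in WT_10) and PSMB7 (85.5, 87.0 and 90.7 CPM in WT_10) were not called on the gene scale with all libraries either, and PSMB6 only in ΔLEO1 cells in low serum, a call lost in 6 of the 12 fits with 1 library left out.

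A ratio of 2 genes within a library does not depend on the scaling, and so each immune catalytic subunit was set against the constitutive subunit that it replaces. PSMB8 stood at 0.480 to 0.763 of the RPKM of PSMB5 over the 12 libraries and PSMB9 at 0.285 to 0.577 of that of PSMB6. PSMB10 was far below PSMB7, at 0.0932, 0.0885 and 0.111 in WT_10 and 0.149, 0.156 and 0.119 in WT_01, and at 0.0734, 0.0770 and 0.0811 in Leo1_10 and 0.137, 0.131 and 0.0831 in Leo1_01. The ratio of PSMB10 to PSMB7 was thus higher in every low-serum library than in any library of the same genotype in 10% serum, by 0.53 and 0.57 on the log2 scale, and it was lower in Leo1_10 than in WT_10, with a log2 difference of -0.33. PSMB9 to PSMB6 was higher in WT_01 than in WT_10 by 0.18, also with no overlap. Each of these 4 had an exact two-sided permutation p of 0.1, the smallest that 3 against 3 libraries can give, and 0.3 after adjustment over the 12 tests, so that the design could not reach 0.05. The other 8 differences, which include all 4 of PSMB8 to PSMB5, lay within overlapping groups, and their exact permutation p ran from 0.4 to 0.8.

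**Figure D5:**
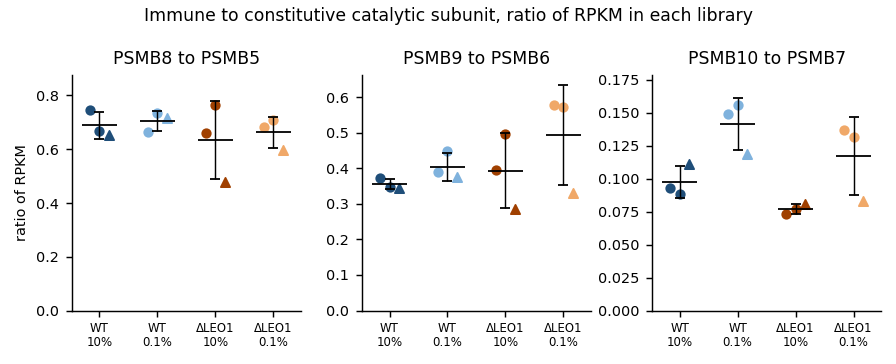
Ratio of the RPKM of an immune catalytic subunit to that of its constitutive counterpart in each library, with the mean (line) and SD (bars) of 3 libraries and triangles for the highest-numbered library. The ratio of PSMB10 to PSMB7 is higher in 0.1% than in 10% serum in both genotypes, and the triangles of ΔLEO1 cells are the lowest of their group for PSMB8 to PSMB5 and PSMB9 to PSMB6.

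The last comparison was with 30 other genes of the pathway, which encode ubiquitin, its activating enzymes, shuttle factors, VCP and its partners, and factors that bind or regulate the proteasome. On the ERCC scale 10 of the 30 fell in wild-type and 15 in ΔLEO1 cells in low serum, beside 27.0% and 36.4% of all genes, none rose, and none was called between genotypes. Relative to the other genes 7 fell and 2 rose in wild-type cells (16.1% and 15.5% of all genes) and 8 fell and 1 rose in ΔLEO1 cells (12.1% and 15.5%), with a median of -0.11 in both. Between genotypes 9 were higher and 2 lower in 10% serum (17.9% and 21.4% of all genes), and 7 higher and 1 lower in 0.1% serum (15.1% and 17.3%), with medians of 0.18 and 0.13. NFE2L1, which encodes the transcription factor that activates proteasome genes when the proteasome is inhibited, fell in low serum on the ERCC scale in wild-type (-1.42, adjusted p = 0.0192) and ΔLEO1 cells (-1.23, adjusted p = 0.0366). On the gene scale it fell in wild-type cells (-0.45 ± 0.07, adjusted p = 0.00101), and in ΔLEO1 cells it had -0.20 (adjusted p = 0.0605). It was lower in Leo1_10 than in WT_10 (-0.23, adjusted p = 0.0293), a call lost without any 1 of the 6 libraries compared, and had 0.02 in 0.1% serum.

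POMP, the maturation factor of the core, and USP14, a deubiquitinase of the cap, changed on the gene scale like most called members. PSMD10 and, in 10% serum, PSME3IP1 were instead called lower in ΔLEO1 cells. POMP fell in low serum on the gene scale, with -0.43 in wild-type and -0.42 in ΔLEO1 cells (adjusted p = 0.00659 and 0.00865), and was higher in ΔLEO1 cells by 0.36 and 0.37 (adjusted p = 0.0128 and 0.0133). USP14 fell as well, with -0.52 and -0.37 (adjusted p = 0.000582 and 0.00523) and was higher in ΔLEO1 cells by 0.23 and 0.39 (adjusted p = 0.0332 and 0.00298). With 1 library left out the calls between genotypes were lost at both serum levels for POMP and in 10% serum for USP14, with adjusted p up to 0.058 and 0.127. The cap subunits that do not carry a PSM symbol, ADRM1 and SEM1, were not called on the gene scale with all libraries. ADRM1 had 0.06 and 0.18 in low serum and 0.08 and 0.21 between genotypes, and SEM1 had 0.21, -0.06, 0.31 and 0.04 in the same order.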

How the data were processed

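RNA of 12 libraries (4 groups of 3) was analysed. Per the labels and the methods of the study, poly(A) RNA with ERCC transcripts was made into stranded mRNA libraries and sequenced in paired-end mode. The submitters' processing notes list bcl2fastq 2.20.0.422, STAR 2.7.10a and featureCounts 1.5.1, and reads were counted in annotated exons of the Ensembl genome. Which Ensembl release supplied the exons, and whether strand was used in counting, is not given in the sources used here. The notes name GRCh38. The authors deposited raw counts for each gene and each ERCC transcript, with no normalization.

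Counts were tested as deposited with edgeR 4.0.16 (quasi-likelihood test, two-sided, R 4.3.3, limma 3.58.1) in 1 fit of all 12 libraries, for the 13236 genes that exceeded 1 CPM in at least 3 libraries. The main scale used the ERCC total times the TMM factor of the ERCC transcripts, and the second scale TMM over the tested genes. P-values were adjusted by Benjamini-Hochberg over all tested genes and called under 0.05. The SE is the log2 fold change divided by the square root of F. The script was tested on simulated data. DESeq2 1.42.0, a likelihood ratio test, other size factors, no filter and left-out libraries were the alternatives. Those that combine the gene scale with left-out libraries were chosen after seeing the data. Levels per kilobase used principal transcripts of GENCODE on GRCh38, and positions come from the same annotation.

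The members and lists were chosen with earlier results of these data known. Named with values were the 5 immune and 3 constitutive catalytic genes, the 3 highest and 3 lowest members of each comparison of 2 groups, those called between genotypes or higher in low serum, PSMA8, PSMB11, PSMC3IP and PSME3IP1, and 5 pathway genes. The members called lower in low serum, PSMD1 and PSMD8 among them, were named in addition after their values were seen. The values of 2 genes of the lists are not reported here.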

Additional observations from a re-analysis of the deposited data

How the results depend on the processing

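No paired analysis was possible because the replicate numbers run from 1 to 12 without a repeat between groups. With TMM on the genes and with DESeq2 size factors on the genes, respectively, 8 and 8 members fell in wild-type cells in low serum (13 on the ERCC scale), 8 and 7 in ΔLEO1 cells (39), 2 and 2 were lower and 16 and 18 higher in Leo1_10 than in WT_10 (0), and 1 and 1 lower and 12 and 12 higher in Leo1_01 than in WT_01 (0). The likelihood ratio test gave 23 and DESeq2 33 in wild-type cells, beside 4776 and 5334 of all 13236 genes. With no filter the counts were 3 and 9 in the 2 genotypes, beside 2493 and 2530 of 32285 genes. The fit without the highest-numbered libraries gave 43 in wild-type cells, beside 63.4% of all genes. The causes of the lower counts without the filter, and of the other differences, were not tested. Leaving out 1 library at a time gave 1 to 43 in wild-type and 0 to 48 in ΔLEO1 cells, and 0 to 1 higher between genotypes at each serum level, the 1 being without Leo1_01 library 11 or, in 10% serum, also without library 12. In wild-type cells the count was 34 without WT_10 library 3, 6 without Leo1_10 library 5, 8 without WT_01 library 8 or Leo1_01 library 10, and 42 without Leo1_01 library 11, and in ΔLEO1 cells 14 without WT_10 library 2 and 13 without WT_01 library 7. Over all genes, 6118 of 13196 were called lower in wild-type cells without WT_10 library 3. In ΔLEO1 cells 2352 of 13191 were called lower without WT_10 library 2.

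On the gene scale, without the highest-numbered libraries, 17 fell and 2 rose in wild-type cells, 16 fell and 4 rose in ΔLEO1 cells, 32 were higher in 10% serum, 2 lower and 36 higher in 0.1% serum, and the interaction was called for 1 in each direction. Of all genes in that fit, 30.0% fell and 27.1% rose in wild-type cells, and 27.7% fell and 28.3% rose in ΔLEO1 cells. In 10% serum 30.3% were higher, and in 0.1% serum 29.0% were lower and 30.4% higher. The interaction was called for 15.7% in the positive and 8.66% in the negative direction. Leaving out 1 library at a time gave 5 to 11 and 3 to 10 that fell, 0 to 2 that rose in ΔLEO1 cells, 0 to 2 lower and 9 to 21 higher in 10% serum, and 1 to 2 lower and 8 to 27 higher in 0.1% serum. Without WT_10 library 1, 2 or 3 or WT_01 library 8 the number that fell in wild-type cells was 5. In ΔLEO1 cells it was 3 without Leo1_10 library 4, 4 without library 5, and 5 without WT_10 library 2 or Leo1_01 library 11 or 12. In 10% serum 9 were higher without Leo1_10 library 5, and 10 without library 4 or WT_10 library 1 or 2. There 0 were lower without WT_10 library 2 or Leo1_10 library 6 and 1 without WT_10 library 1 or 3 or Leo1_10 library 4 or 5. In 0.1% serum 2 were lower without WT_01 library 9 and 27 higher without Leo1_01 library 12, without which 2 also rose in low serum. Over all genes, 1682 of 13183 fell in wild-type cells without WT_10 library 1 and 1644 of 13191 without library 2, against 2127 of 13236. In 10% serum 1713 and 1691 of all genes were higher in these 2 fits, against 2371. The numbers over all genes for the other left-out libraries are not given here. These ranges thus cannot be read as a trait of the members.

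Of the pathway genes, 10 fell in wild-type cells, but 17 in DESeq2, 5 with no filter, 20 without the highest-numbered libraries and 1 to 21 with 1 library left out. In ΔLEO1 cells 15 fell, but 27, 6, 30 and 1 to 30 in the same order, and 8 and 8 with both scalings on the genes. Over all genes, 5334 of 13236 fell in wild-type cells in DESeq2, 2493 of 32285 with no filter and 8186 of 12911 without the highest-numbered libraries. In ΔLEO1 cells these were 6861, 2530 and 11873. The ranges with 1 library left out are given without such numbers and cannot be read as a trait of the pathway genes. The 2 scalings on the genes also gave 2 and 2 that rose in wild-type and 1 and 1 in ΔLEO1 cells, 2 and 2 lower and 9 and 9 higher in 10% serum, and 1 and 1 lower and 7 and 8 higher in 0.1% serum. For TMM on the genes the shares of all genes are given above.

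With TMM and with DESeq2 size factors on the genes, members of opposite sign to the ERCC scale for wild-type cells in low serum were PSMG2 0.18 and 0.19, PSME1 0.18 and 0.18, PSMB10 0.37 and 0.37, PSME2 0.13 and 0.14 and PSMB9 0.027 and 0.030. In the same order, those for ΔLEO1 cells in low serum were PSME3IP1 0.053 and 0.052, PSMA2 0.18 and 0.18, PSMB10 0.37 and 0.37, PSME1 0.093 and 0.092 and PSMB9 0.051 and 0.050. In the same order, those for 10% serum between genotypes were PSME3IP1 -0.29 and -0.28, PSMD10 -0.24 and -0.23, PSMB10 -0.20 and -0.19, PSMB5 -0.0090 and PSMB8 -0.13 and -0.12. Leaving out the highest-numbered libraries turned PSME3IP1 -0.018. In the same order, those for 0.1% serum between genotypes were PSMB5 -0.083 and -0.076 and PSMB8 -0.17 and -0.16. Leaving out the highest-numbered libraries turned PSME1 -0.18, PSMB5 -0.38, PSME2 -0.0099, PSMB7 -0.26, PSMB6 -0.21 and PSMB8 -0.41. On the gene scale the sign between genotypes turned for PSMB5 0.0022 in 10% serum with DESeq2 size factors, PSMB5 0.0011 in 10% serum without the highest-numbered libraries, PSMB8 0.016 in 10% serum without the highest-numbered libraries, PSMB5 0.041 in 0.1% serum without the highest-numbered libraries and PSMB8 0.032 in 0.1% serum without the highest-numbered libraries. For 10% serum between genotypes on the ERCC scale, values with 1 library left out ran from -0.18 to 0.28 for PSME3IP1 and from -0.097 to 0.35 for PSMD10. For 0.1% serum between genotypes on the ERCC scale, values with 1 library left out ran from -0.40 to 0.15 for PSMB10, from -0.42 to 0.30 for PSMG3, from -0.50 to 0.27 for PSMD10, from -0.052 to 0.38 for PSME1, from -0.25 to 0.45 for PSMB5, from -0.10 to 0.49 for PSMB7, from -0.12 to 0.66 for PSMB6 and from -0.29 to 0.29 for PSMB8. Values for wild-type cells in low serum on the gene scale, with 1 library left out ran from -0.019 to 0.11 for PSMB9. Values for ΔLEO1 cells in low serum on the gene scale, with 1 library left out ran from -0.052 to 0.33 for PSME1, from -0.30 to 0.16 for PSME2, from -0.29 to 0.0097 for PSMB8 and from -0.15 to 0.30 for PSMB9. Values for 10% serum between genotypes on the gene scale, with 1 library left out ran from -0.068 to 0.023 for PSMB5 and from -0.28 to 0.022 for PSMB8. Values for 0.1% serum between genotypes on the gene scale, with 1 library left out ran from -0.42 to 0.096 for PSMB10, from -0.11 to 0.27 for PSME1 and from -0.062 to 0.17 for PSMB7. The log2 ratio of PSMB8 to PSMB5 turned without the highest-numbered libraries, to -0.015 in wild-type cells, -0.028 in ΔLEO1 cells and 0.0062 in 10% serum. It ran, with 1 library left out, from -0.0032 to 0.093 in wild-type cells, from -0.10 to 0.23 in ΔLEO1 cells and from -0.29 to 0.044 in 10% serum, and that of PSMB9 to PSMB6 from -0.077 to 0.32 in 10% serum. Among the values of named members, 122 lost and 27 gained the call with 1 library left out, 18 lost and 49 gained it under other alternatives, and 1284 and 338 kept sign and call. The causes were not tested.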

Other observations

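Some genes outside the member list were named after their values were seen. Of the pathway genes, ZFAND5, which encodes an activator of proteasomal degradation, fell most in low serum, with -2.06 on the ERCC scale in wild-type cells (adjusted p = 0.000409) and -2.11 in ΔLEO1 cells (adjusted p = 0.000436), and with -1.21 and -1.11 on the gene scale. Its gene-scale fall rested in part on WT_10 library 3 (766 CPM, against 407 and 397 in the other libraries) and Leo1_10 library 6 (1059 CPM, against 570 and 505). Without library 3 it was -0.83 in wild-type cells (adjusted p = 0.0345), and without library 6 it was -0.69 in ΔLEO1 cells (adjusted p = 0.0612), no longer called. AKIRIN2, which encodes a factor for nuclear import of proteasomes, was the opposite on the gene scale, with a rise of 0.65 (adjusted p = 0.000204) and 0.52 (adjusted p = 0.000892), while on the ERCC scale it had -0.31 and -0.58. UBB, a polyubiquitin gene, was higher in ΔLEO1 cells on the gene scale by 0.70 and 0.55 (adjusted p = 0.000505 and 0.00326).

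A list of 9 genes of the interferon response and of antigen presentation was set beside the immune genes. Between genotypes TAP2, a subunit of the peptide transporter, was higher in ΔLEO1 cells on the ERCC scale in 10% serum (1.61 ± 0.50, adjusted p = 0.0175) and had 1.37 in 0.1% serum (adjusted p = 0.0757). On the gene scale TAP2 was called in both, with 1.27 in 10% and 1.26 in 0.1% serum, and HLA-C only in 0.1% serum (0.50, adjusted p = 0.044, against 0.36 and adjusted p = 0.12 in 10% serum). The call of HLA-C was lost in 9 of the 12 fits with 1 library left out, and it was called in 10% serum without Leo1_10 library 6 (0.51, adjusted p = 0.0372). TAP1, IRF1, NLRC5 and B2M were not called between genotypes on either scale with all libraries, nor were the 5 immune members. Without the highest-numbered libraries 7 of the 9 were higher in 10% serum, and 6 were higher and IRF1 lower in 0.1% serum, on the gene scale, beside 30.3%, 30.4% and 29.0% of all genes. In low serum 3 of the 9 fell in wild-type and 6 in ΔLEO1 cells on the ERCC scale, beside 27.0% and 36.4% of all genes.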
